A study of Mus musculus with 13 samples.

Results

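A set of 33 genes of glycolysis and of the response to low oxygen was followed through pregnancy and Tbx3 loss in mouse abdominal epidermis. The members were chosen by name, and their rows were read from a bulk table of 21950 genes and from 4 single-cell matrices of 28693 genes. All 33 were found in both. The bulk libraries held RNA of interfollicular basal cells, the proliferative keratinocytes between hair follicles, sorted by flow cytometry (CD49f+ CD34-). The abdominal skin came from C57BL/6 mice. They fall into 3 groups of 3 libraries: wild type (WT) on gestation day 16, here dpc16, non-pregnant WT, here NP, and K14creERT2;Tbx3flox/flox (Tbx3 cKO) at dpc16. In the cKO mice a tamoxifen-inducible Cre is driven by the keratin 14 promoter, so that deletion is directed to basal keratinocytes of all epidermal compartments. The labels do not say if the bulk WT animals had tamoxifen too. The single-cell libraries held cells of whole abdominal epidermis from C57BL/6 mice of genotype Tbx3creERT2; R26H2B EGFP, which had all received tamoxifen, 1 library for each of 4 states. These were NP, dpc16, and days 6 and 40 after birth (dpp6 and dpp40), and the labels name no floxed Tbx3 allele for them. The labels give no age and no number of animals behind a library. The spread between libraries, on which every p-value rests, may therefore be technical only.

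Glycolysis splits glucose into pyruvate, and in cells that do not pass pyruvate to the mitochondria lactate dehydrogenase turns it into lactate, which is exported. When oxygen is low, prolyl hydroxylases (Egln genes) no longer mark the transcription factor subunit HIF-1α for degradation, and HIF-1 raises glucose carriers, nearly every glycolytic enzyme, mitophagy receptors, carbonic anhydrases and its own hydroxylases. Epidermis has no blood vessels of its own, and its keratinocytes are known to make much of their energy by glycolysis.

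HIF-1 binds DNA at a short core that has a preferred and a second form. The promoter windows of each member were taken, each 250 bases before to 50 bases after an annotated start (RefSeq, GRCm38.p6). Both strands were searched for the preferred core, spelled ACGTG, and likewise for the second core, which is spelled GCGTG. They were also searched for the E-box, which other factors bind and which contains the preferred core, spelled CACGTG. For 31 members 46 windows were found, some members having more than 1, while Bnip3l and Ndufa4l2 had no entry. A gene counted where any of its windows matched. At least 1 match to either core was found for 28 of the 31 members, against 46.7% of the 27025 genes in the table. By window the shares were 78.3% of the 46 and 43.8% of all 32851. The preferred core was found for 22 members (21.8% of all genes), the second core for 20 (35.2%) and the E-box for 5 (8.09%). The members' windows were also richer in G and C (median 62.8% against 52.7%) and in CG pairs (median 21.0 against 7.00 per window), and the part of base composition in the difference was not tested. The 3 members with no match were Car12, Tpi1 and Gpi1. Shown here are the 250 bases before the start of the 2 genes that passed the test for Tbx3 loss (Bnip3 and Car12). Those of Car9, the member with the lowest pregnancy ratio, follow. So do those of Pgk1, which lay lower after birth in single cells, where most members lay higher. Capitals mark either core on either strand.
Bnip3, chr7:138909507-138909756, minus strand: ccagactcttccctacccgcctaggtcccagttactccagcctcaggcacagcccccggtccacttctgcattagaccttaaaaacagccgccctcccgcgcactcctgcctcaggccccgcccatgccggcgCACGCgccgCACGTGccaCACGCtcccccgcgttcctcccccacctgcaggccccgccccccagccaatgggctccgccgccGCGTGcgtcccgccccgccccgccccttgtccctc
Car12, chr9:66713436-66713685, plus strand: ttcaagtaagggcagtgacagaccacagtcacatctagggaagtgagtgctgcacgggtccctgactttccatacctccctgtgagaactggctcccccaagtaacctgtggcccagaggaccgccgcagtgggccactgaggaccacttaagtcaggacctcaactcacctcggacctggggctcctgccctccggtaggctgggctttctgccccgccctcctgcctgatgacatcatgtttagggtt
Car9, chr4:43506776-43507025, plus strand: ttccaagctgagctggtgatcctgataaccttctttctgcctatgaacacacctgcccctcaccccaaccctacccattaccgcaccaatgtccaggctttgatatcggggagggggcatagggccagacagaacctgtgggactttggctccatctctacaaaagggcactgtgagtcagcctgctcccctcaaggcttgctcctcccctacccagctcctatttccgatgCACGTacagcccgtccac
Pgk1, chrX:106186850-106187099, plus strand: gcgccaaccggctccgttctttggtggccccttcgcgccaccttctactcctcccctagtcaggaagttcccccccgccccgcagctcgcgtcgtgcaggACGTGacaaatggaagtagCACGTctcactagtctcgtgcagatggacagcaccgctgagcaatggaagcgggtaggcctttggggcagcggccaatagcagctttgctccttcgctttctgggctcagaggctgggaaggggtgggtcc
The Bnip3 window held 2 matches of the preferred and 3 of the second core, and the pair that begins at bases -108 and -107 overlaps in its 1 E-box. The Pgk1 window held 2 of the preferred core, beginning at bases -150 and -131, and the Car9 window 1, at base -18. The Car12 window held none. A match of letters is no measured binding site, and these data hold no binding measurement.

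Bulk values are FPKM, fragments scaled by transcript length and library size, as deposited. Changes are differences of log2(FPKM + 1), tested with limma in the 11497 genes whose mean reached 1 FPKM, and a gene is called where its Benjamini-Hochberg adjusted p over all those genes is under 0.05. All 33 members passed the filter. Columns headed WT carry no day in the table and were assigned to dpc16 by exclusion, and libraries are numbered as their columns. Tbx3 itself stood at 17.0, 15.3 and 23.0 FPKM in the WT dpc16 libraries, at 8.96, 6.38 and 8.12 in NP, and at 4.81, 1.65 and 4.89 in cKO, where all 3 libraries lay below both WT groups. Summed FPKM was 785636 to 847693 per library. Markers of basal keratinocytes, led by Krt5, summed to 33400 to 37400 FPKM in WT dpc16, 30800 to 39900 in NP and 22500 to 30400 in cKO. The last had no overlap. Infundibulum and upper follicle markers, led by Defb6, summed to 538 to 1140 FPKM in WT dpc16, 980 to 3710 in NP and 1170 to 2000 in cKO. There cKO lay above WT dpc16 without overlap. Granular markers summed to 46.4 to 60.1, 56.1 to 93.7 and 51.3 to 89.0 FPKM, and basal upper follicle markers to 6300 to 12000, 8720 to 16600 and 9360 to 16800. These 2 lists overlapped between WT dpc16 and cKO. The part of these differences in the cKO values was not tested. Adipocyte markers summed to at most 0.472 FPKM. Merkel, mammary luminal and fibroblast markers reached 37.2, 35.1 and 9.86 FPKM in NP. They reached at most 0.163, 0.919 and 0.505 in WT dpc16 and 0.594, 0.792 and 1.41 in cKO. The first 2 lists share their leading gene, Krt18. Skeletal muscle markers are given below, and the part of these in the NP values was not tested.

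Taken by library, the 33 members together held 0.646% to 0.763% of all FPKM in NP, 0.477% to 0.514% in WT dpc16, and 0.344%, 0.585% and 0.402% in cKO. NP was above both dpc16 groups without overlap. The cKO group was the widest, with library 2 above and libraries 1 and 3 below the WT dpc16 range. In bulk RNA, fewer cells of a kind and less RNA per cell cannot be told apart.

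**Figure D1:**
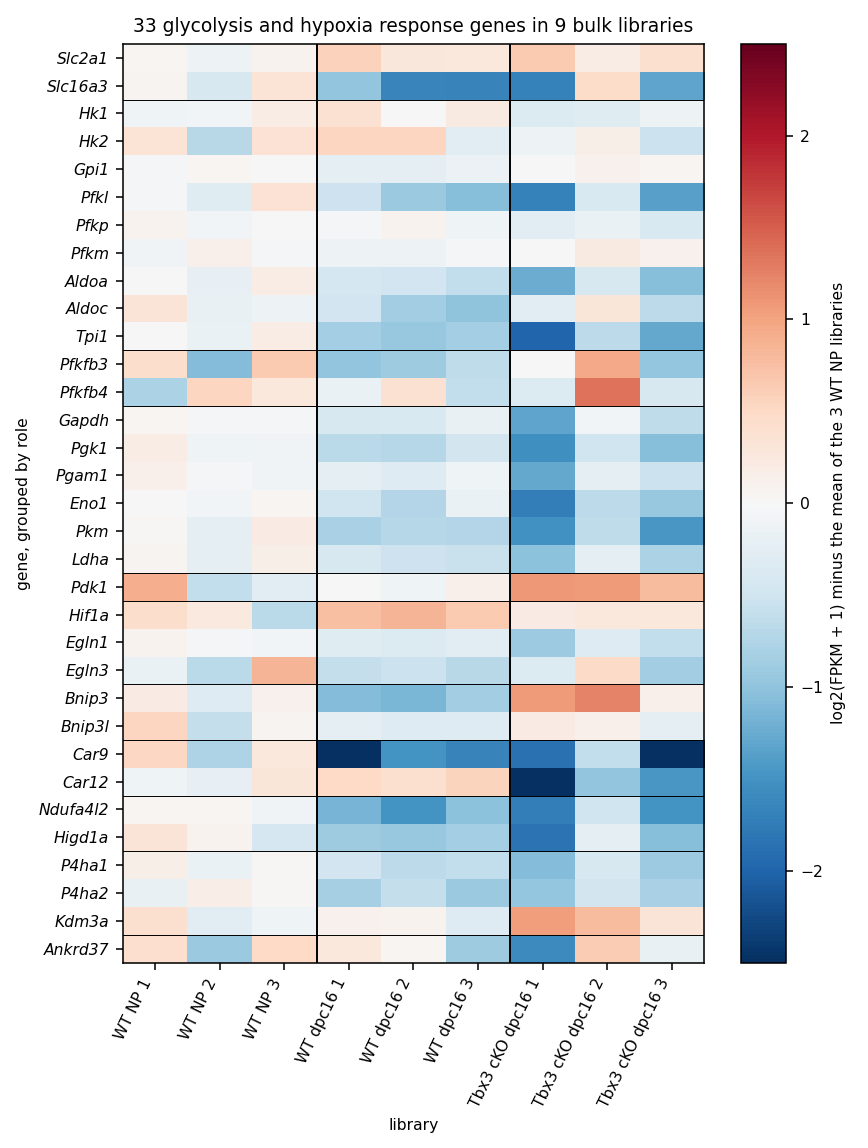
Each row is 1 of the 33 members, grouped by role, and each column 1 of the 9 bulk libraries. Colour gives log2(FPKM + 1) minus the mean of the 3 WT NP libraries. The scale ends at 2.5 either way. Blue prevails in WT dpc16 and in cKO libraries 1 and 3, while Bnip3, Pdk1 and Kdm3a are red in cKO libraries 1 and 2.

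The first comparison, WT dpc16 against WT NP, addresses pregnancy. Of the 33 members 27 lay lower and 6 higher at dpc16, with a median difference of -0.47, against -0.03 over all genes, 46.0% of which lay higher. No member was called by limma. The share of all genes called was 0.104% higher and 0.0261% lower. At an unadjusted limma p under 0.05 there were 16 members, 2 higher and 14 lower, against 1040 of the 11497 genes tested. The groups did not overlap for 19 members that lay lower (8.77% of all genes) and 3 that lay higher (6.82%). Ndufa4l2 was called with cKO library 2 left out or with only these 6 libraries in the fit, and no other member was called under any alternative.

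The second comparison, Tbx3 cKO against WT at dpc16, addresses Tbx3 loss in pregnancy. There 14 members lay higher and 19 lower, with a median of -0.19 against 0.01 over all genes. Bnip3 rose and Car12 fell, the 2 members called, against 1.23% of all genes called higher and 0.922% called lower. The groups did not overlap for 5 members above (13.3% of all genes) and 4 below (12.9%), shares near the background. The third comparison, cKO against NP, shares its libraries with both others. There 24 members lay lower with a median of -0.61, against -0.02 over all genes, 8 fell and 0 rose, against 2.91% of all genes called lower and 2.76% higher. The groups did not overlap for 16 members below (14.2%) and 1 above (12.2%). The members that fell were Tpi1, Aldoa, Pgk1, Eno1, Pkm, Car12, Ndufa4l2 and P4ha1. The number called in either direction, 8 here, moved with single libraries. It was 1, 15 and 5 without cKO libraries 1, 2 and 3, 3, 1 and 0 without NP libraries 1, 2 and 3, and 4, 4 and 7 without WT dpc16 libraries 1, 2 and 3. Among these calls were 1 of Bnip3 (without cKO library 3) and 1 of Pdk1 (without NP library 1), both higher in cKO.

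**Figure D2:**
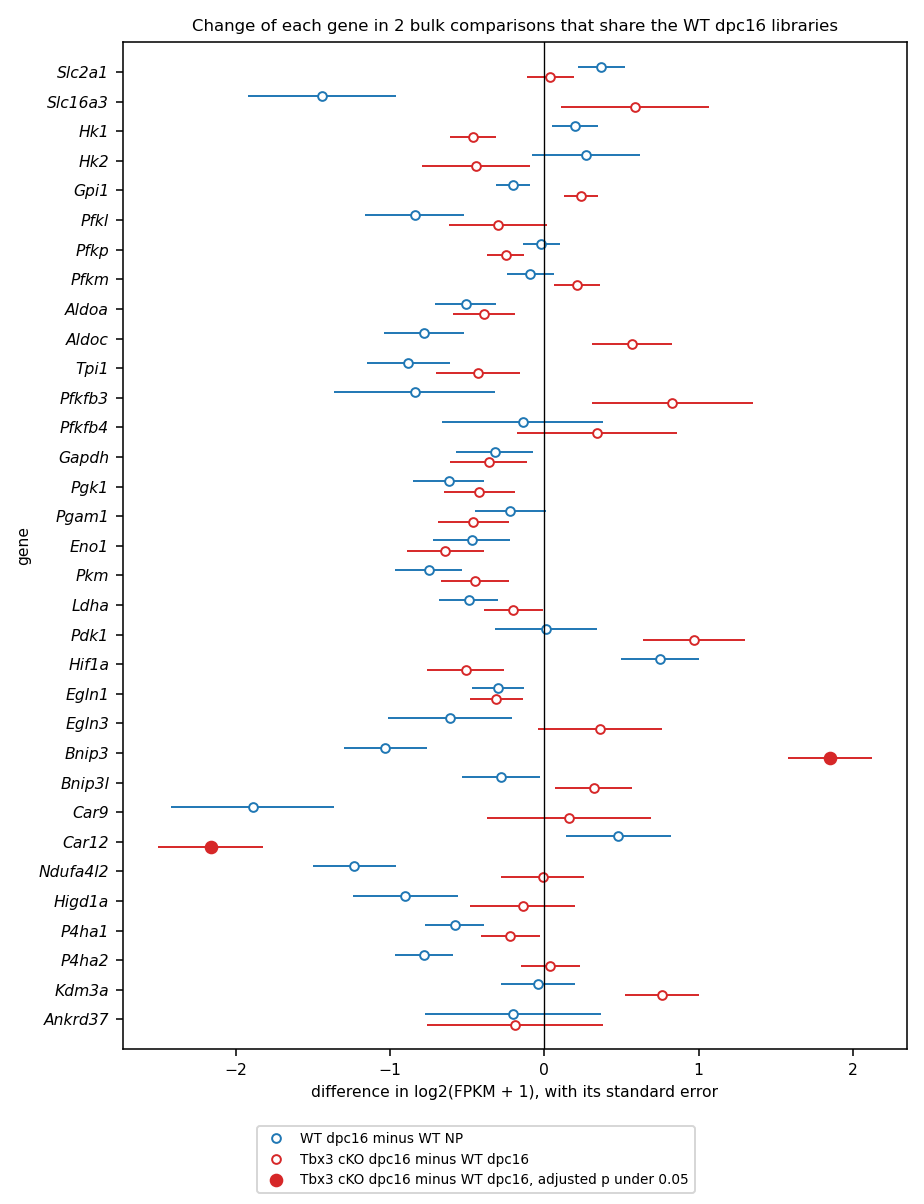
Points give each member's difference in log2(FPKM + 1) with its standard error, for WT dpc16 minus WT NP (blue) and Tbx3 cKO dpc16 minus WT dpc16 (red), n = 3 libraries a group. Filled points have an adjusted p under 0.05. Only Bnip3 (1.85) and Car12 (-2.16) are filled, and both comparisons use the same WT dpc16 libraries.

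Glucose enters keratinocytes mainly through Slc2a1 (GLUT1). Its level was 183, 150 and 147 FPKM in WT dpc16, 126, 112 and 130 in NP, and 192, 140 and 163 in cKO. Every dpc16 library, WT or cKO, lay above every NP library, by 0.37 ± 0.15 (SE; limma adjusted p = 0.493) and 0.42 ± 0.15 (adjusted p = 0.140). Slc16a3 (MCT4), the lactate exporter, went the other way, with 14.3, 8.66 and 8.52 FPKM in WT dpc16 below 30.7, 21.9 and 37.6 in NP (-1.44 ± 0.48, adjusted p = 0.370). In cKO it stood at 8.42, 40.8 and 11.2 FPKM, with library 2 above all NP libraries, library 3 within the WT dpc16 range and library 1 just below it. Neither carrier was called in any of the 3 comparisons.

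Of the preparatory enzymes, which turn glucose into triose phosphates, Tpi1, Aldoa, Aldoc, Pfkl and Gpi1 lay lower in WT dpc16 than in NP without overlap. Tpi1, triose phosphate isomerase, had 196, 185 and 196 FPKM in WT dpc16, 351, 318 and 402 in NP, and 88.8, 225 and 145 in cKO. The NP libraries lay above all 6 others, by 0.88 against WT dpc16 (SE 0.27, adjusted p = 0.322) and by 1.31 against cKO (SE 0.27, adjusted p = 0.0267 by limma). Aldoa, the main aldolase, had 514, 497 and 452 FPKM in WT dpc16, 697, 603 and 792 in NP, and 294, 526 and 332 in cKO, and its fall in cKO against NP was -0.90 ± 0.20 (adjusted p = 0.0355). Aldoc, the brain-type aldolase, had 12.9, 9.64 and 8.67 FPKM in WT dpc16, 23.1, 15.9 and 16.7 in NP, and 15.2, 22.8 and 11.2 in cKO. Its WT groups did not overlap (-0.78 ± 0.26, adjusted p = 0.376). Pfkl, the liver-type phosphofructokinase, lay at 27.4 to 40.3 FPKM in WT dpc16 and 47.0 to 75.2 in NP.

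For Hk1, Pfkp, Pfkm and Hk2 the 2 WT groups overlapped, and for Gpi1 they differed by only -0.20 on the log2 scale. Hk1, the hexokinase bound to mitochondria, had 62.5, 48.6 and 56.4 FPKM in WT dpc16, 44.5, 45.8 and 54.5 in NP, and 37.6, 38.7 and 43.9 in cKO. The cKO libraries were the lowest 3 of the 9 (-0.46 ± 0.15 against WT dpc16, adjusted p = 0.155). Gpi1, which converts glucose 6-phosphate to fructose 6-phosphate, had 329, 333 and 352 FPKM in WT dpc16, 375, 398 and 389 in NP, and 383, 418 and 401 in cKO. WT dpc16 lay below both other groups without overlap, by 0.24 ± 0.11 on the log2 scale against cKO (adjusted p = 0.271). Pfkp, the platelet-type phosphofructokinase and the most abundant of the 3 isoenzymes, lay at 178 to 204 FPKM in WT dpc16, 184 to 203 in NP and 147 to 172 in cKO. Pfkm stayed between 14.8 and 19.3 FPKM, and Hk2, the inducible hexokinase, between 2.86 and 8.14. The fructose bisphosphate regulators Pfkfb3 and Pfkfb4, which set phosphofructokinase activity, were low and spread widely: Pfkfb3 was 4.33 to 5.84 FPKM in WT dpc16 but 3.96 to 15.7 in NP and 4.40 to 19.4 in cKO.

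All 6 payoff-phase members had lower means in WT dpc16 than in NP, and lower again in cKO, although none was called between cKO and WT dpc16. Pkm, pyruvate kinase, had 210, 227 and 224 FPKM in WT dpc16, 378, 318 and 426 in NP, and 130, 238 and 135 in cKO. It lay 0.75 lower in WT dpc16 than in NP (SE 0.22, adjusted p = 0.288) and fell by 1.2 in cKO against NP (adjusted p = 0.0181). Eno1, enolase, had 266, 226 and 335 FPKM in WT dpc16, 381, 361 and 393 in NP, and 113, 239 and 195 in cKO (-1.11 ± 0.25 against NP, adjusted p = 0.0335). Pgk1, phosphoglycerate kinase, had 76.4, 74.6 and 88.7 FPKM in WT dpc16, 141, 114 and 116 in NP, and 41.9, 86.3 and 58.1 in cKO (-1.04 ± 0.23 against NP, adjusted p = 0.0336). For these 3 genes no NP library overlapped either dpc16 group. Gapdh lay at 381 to 442 FPKM in WT dpc16, 491 to 519 in NP and 201 to 475 in cKO, and Pgam1 at 115 to 134, 136 to 158 and 58.8 to 123. Ldha, which makes lactate, lay at 256 to 287, 322 to 420 and 185 to 318. Gapdh, Pgk1, Pgam1, Aldoa and Ldha have annotated copies (2 or 3 each by name in GENCODE M21), and Bnip3l has 1. The authors' counting may have divided reads among them, so these levels are uncertain to that extent. A second entry named Aldoa reached at most 3.03 FPKM. Copies under other names were not searched for, so the other members may have some too.

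Pdk1, the kinase that closes the pyruvate dehydrogenase gate into mitochondria, had 34.9, 32.7 and 38.3 FPKM in WT dpc16, 66.9, 22.5 and 28.5 in NP, and 75.4, 74.4 and 61.1 in cKO. All cKO libraries lay above all WT dpc16 libraries, by 0.97 ± 0.33 (limma adjusted p = 0.159), while NP library 1 lay among them. Over the 16 alternatives its adjusted p ran from 0.0274 to 0.362, and it was called in 2, without NP library 1 (0.0274) and with only the 6 libraries compared (0.0337).

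Among oxygen sensors, Hif1a and Egln1 lay on opposite sides of their NP levels in WT dpc16. Hif1a, the oxygen-regulated subunit, had 68.7, 73.6 and 64.7 FPKM in WT dpc16, 55.1, 48.3 and 25.1 in NP, and 46.8, 48.8 and 49.1 in cKO. WT dpc16 lay above both other groups without overlap, by 0.75 ± 0.25 against NP (adjusted p = 0.368) and by 0.51 ± 0.25 against cKO (adjusted p = 0.330), and neither difference was called. HIF-1α is set mainly by protein stability, which RNA does not show. Egln1, the main prolyl hydroxylase, lay at 37.0 to 39.1 FPKM in WT dpc16, 44.8 to 50.4 in NP and 24.8 to 37.5 in cKO. Egln3, an inducible one, lay at 15.8 to 17.8, 16.1 to 47.9 and 14.0 to 36.8, with wide overlap.

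Bnip3, a receptor that marks mitochondria for autophagy, rose with Tbx3 loss. It had 26.6, 25.7 and 30.9 FPKM in WT dpc16, 66.5, 46.2 and 62.3 in NP, and 122, 138 and 63.0 in cKO. All WT dpc16 libraries lay below all NP libraries and all cKO libraries. The rise in cKO against WT dpc16 was 1.85 ± 0.27, a ratio of means of 3.88 (limma adjusted p = 0.0119; 3 of 3 libraries above). It was called in 14 of 16 alternatives, with adjusted p from 0.00207 to 0.0573, and lost without WT dpc16 library 2 (0.0573) or cKO library 1 (0.0545). Against NP the WT dpc16 libraries lay 1.03 lower (SE 0.27, adjusted p = 0.237), and the cKO libraries 0.81 higher with cKO library 3 inside the NP range (adjusted p = 0.108). Its paralogue Bnip3l lay at 93.5 to 99.3 FPKM in WT dpc16, 76.4 to 170 in NP and 99.1 to 134 in cKO, with overlap throughout.

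The carbonic anhydrases, which convert carbon dioxide to bicarbonate at the cell surface, split. Car12 had 80.9, 76.1 and 84.4 FPKM in WT dpc16, 53.0, 49.7 and 71.1 in NP, and 8.76, 28.2 and 20.3 in cKO. The 3 groups did not overlap one another. Car12 fell in cKO by 2.16 against WT dpc16 (SE 0.34, ratio of means 0.237, adjusted p = 0.0156) and by 1.67 against NP (SE 0.34, adjusted p = 0.0241). The fall against WT dpc16 was called in 12 of 16 alternatives, with adjusted p from 0.0117 to 0.0640, and was lost without WT dpc16 library 1 (0.0570), 2 (0.0575) or 3 (0.0640) and with no filter on low FPKM (0.0572). Car9 was low everywhere: 0.605, 2.20 and 1.81 FPKM in WT dpc16, 11.8, 4.25 and 9.78 in NP, and 1.47, 4.84 and 0.395 in cKO. Its WT groups did not overlap, at a ratio of means of 0.178 (-1.89 ± 0.53, adjusted p = 0.259).

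Ndufa4l2, a HIF target that lowers respiratory chain activity, had the highest mean FPKM of the members over the 9 libraries and the smallest p of them for pregnancy, although in WT dpc16 the mean of Aldoa (487) was above its own (469). It had 489, 387 and 531 FPKM in WT dpc16, 1120, 1120 and 1030 in NP, and 328, 767 and 388 in cKO. NP lay above all other libraries, with differences of -1.23 ± 0.27 for WT dpc16 (adjusted p = 0.152, 0.0187 to 0.465 over the alternatives) and -1.24 ± 0.27 for cKO (adjusted p = 0.0307). WT dpc16 and cKO overlapped, with a difference of -0.01 ± 0.27. Higd1a, another small mitochondrial protein induced by low oxygen, lay at 120 to 129 FPKM in WT dpc16, 174 to 294 in NP and 64.5 to 198 in cKO.

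Of the collagen prolyl hydroxylase subunits, P4ha1 had 40.1, 35.7 and 36.7 FPKM in WT dpc16, 62.3, 49.9 and 57.9 in NP, and 26.1, 42.3 and 29.8 in cKO, and fell in cKO against NP (-0.80 ± 0.19, adjusted p = 0.0407). P4ha2 had 11.1, 13.3 and 10.3 FPKM in WT dpc16, 17.8, 23.2 and 20.8 in NP, and 9.99, 14.7 and 11.3 in cKO, with NP above every other library (WT dpc16 -0.78 ± 0.19, adjusted p = 0.200). Kdm3a, a histone demethylase, had 47.7, 47.3 and 35.5 FPKM in WT dpc16, 59.1, 36.2 and 41.0 in NP, and 92.5, 77.3 and 55.6 in cKO. In cKO it lay above WT dpc16 without overlap (0.76 ± 0.24, limma adjusted p = 0.135). So did Bnip3, Pdk1, Gpi1 and Pfkm. Of these 5 only Bnip3 was called, and 13.3% of all genes lay above without overlap. Ankrd37 varied from 4.91 to 26.7 FPKM, and its extremes were both in cKO.

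**Figure D3:**
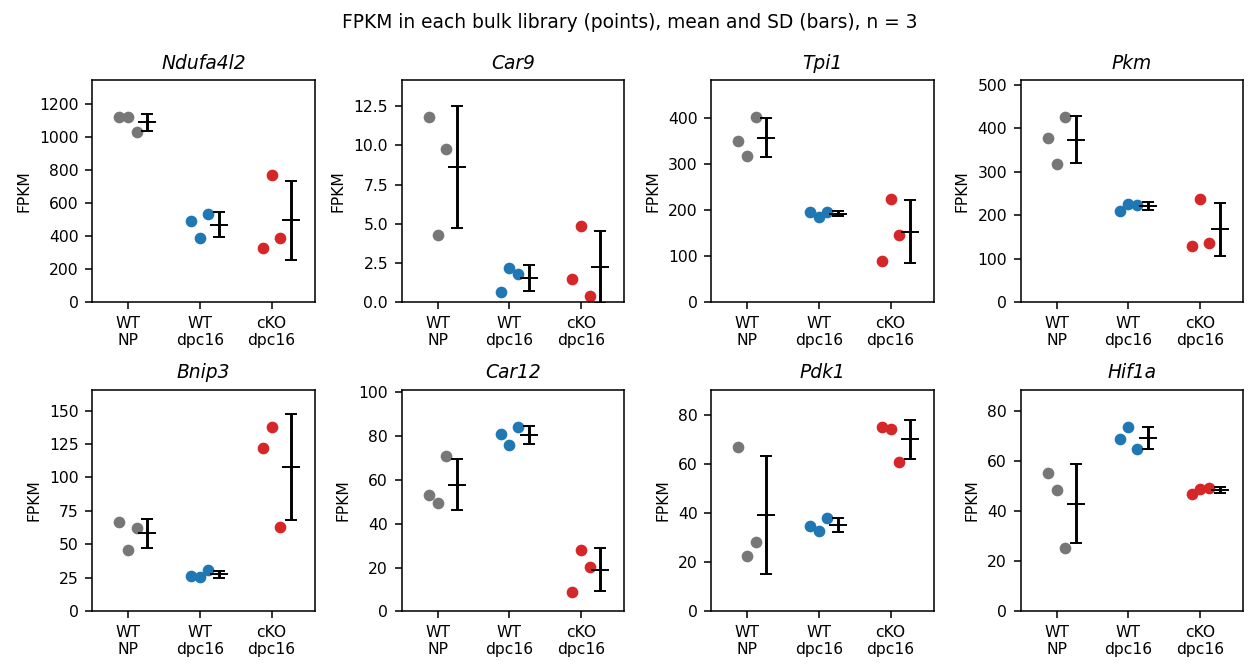
Points are FPKM in each bulk library for 8 members, with mean and SD (bars), n = 3 a group; each y axis starts at 0. Ndufa4l2, Tpi1 and Pkm are highest in the 3 NP libraries, Bnip3 lies between 63.0 and 138 FPKM in cKO against 25.7 to 30.9 in WT dpc16, and Car12 is lowest in cKO.

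Among other genes of the same pathways, 1 passed the test between WT dpc16 and NP. Over all genes 0.104% were called higher and 0.0261% lower there. The shares were 1.23% and 0.922% in cKO against WT dpc16, and 2.76% and 2.91% in cKO against NP. Of 35 tested among 40 other hypoxia-inducible genes 1 rose and 0 fell, with a median of -0.09. That gene was Angptl4, a secreted inhibitor of lipoprotein lipase, at 31.3, 44.8 and 29.0 FPKM in WT dpc16, 3.88, 6.43 and 5.69 in NP, and 4.61, 4.36 and 5.79 in cKO. It rose by 2.51 ± 0.23 with pregnancy (limma adjusted p = 0.00242) and fell by 2.59 with Tbx3 loss (SE 0.23, adjusted p = 0.00165), so WT dpc16 alone was high. In cKO against WT dpc16, Stc2 (2.01, adjusted p = 0.0185), which encodes a secreted glycoprotein, and the MAX partner Mxi1 (0.95, adjusted p = 0.0405) also rose, 2 higher and 1 lower of 35. In cKO against NP, 2 of 35 rose (Stc2 and Mxi1) and 2 fell, Mif (-0.84) and Fam162a (-1.23).

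Among the carriers of lactate and pyruvate outside the set, Emb, a chaperone of monocarboxylate carriers, rose in cKO from 11.2, 9.13 and 6.32 FPKM in WT dpc16 to 37.5, 39.6 and 33.6 (1.97 ± 0.23, limma adjusted p = 0.00446), 1 of 6 genes called in either direction. In the pentose phosphate list 1 of 8 rose, Prps1 (1.07, adjusted p = 0.0435), and in cKO against NP Taldo1 fell (-1.08, adjusted p = 0.0243). For pyruvate dehydrogenase 0 of 11 were called in the first 2 comparisons, and Pdk4, another kinase of that complex, rose in cKO against NP (2.65 ± 0.59, adjusted p = 0.0334). Pdk2 had the smallest p for Tbx3 loss there, 11.2, 11.1 and 9.91 FPKM in WT dpc16 against 27.2, 15.6 and 25.3 in cKO (0.98, adjusted p = 0.0711). Among 7 other glucose carriers Slc2a8 rose in cKO against NP (1.03, adjusted p = 0.0417). Of 14 further oxygen-sensing genes 0 were called in the first 2 comparisons, and against NP Siah1a rose (0.73, adjusted p = 0.0307) and Elob fell (-0.62, adjusted p = 0.0469) in cKO. No gene was called in any comparison among 13 other glycolytic isoenzymes, 9 of glycogen, 5 of gluconeogenesis and 15 regulators. The smallest p values there for pregnancy belonged to Eno2 (-1.16), Gyg (0.68), Fbp2 (0.89) and Tsc2 (-0.28), and for Tbx3 loss, among isoenzymes, gluconeogenesis and regulators, they belonged to Pfkfb2 (0.50), Pck2 (0.74) and Tsc1 (0.85).

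Cell division genes were lower in WT dpc16 than in NP, a comparison in which 46.0% of all genes lay higher and their median was -0.03. In WT dpc16 against NP, 21 of 23 S phase genes and 20 of 20 genes of G2 and mitosis lay lower, with medians of -0.68 and -0.79, although 0 were called; Mcm3, a replication helicase subunit, was nearest (-1.02, limma adjusted p = 0.0570). The mean level of the G2 and mitosis list, as log2(FPKM + 1), was 2.57, 2.95 and 4.42 in WT dpc16 and 4.31, 4.54 and 3.43 in NP, so that WT dpc16 library 3 stood within the NP range and the groups overlapped. In cKO against WT dpc16 the same lists had medians of 0.00 and 0.11. Against NP, 4 of 23 S phase genes fell in cKO, led by Mcm3 (-1.17, limma adjusted p = 0.00693), where 2.91% of all genes were called lower. Summed spinous markers were 6060 to 15500 FPKM in WT dpc16, 9080 to 11000 in NP and 3660 to 5440 in cKO, with 10 of 10 markers at a mean of 1 FPKM or more. Skeletal muscle markers, which share glycolytic isoenzymes, summed to 6.27 to 19.3, 17.4 to 45 and 5.18 to 13.7 FPKM, with only Mylpf at a mean of 1 FPKM or more. T cell markers summed to 0.499 to 1.84 FPKM in WT dpc16, 3.67 to 8.98 in NP and 0.867 to 2.33 in cKO, with 1 of 7 at a mean of 1 FPKM or more. Smooth muscle and pericyte markers summed to 2.33 to 4.09, 6.97 to 15 and 3.58 to 5.25 FPKM (3 of 6), and Langerhans and myeloid markers to 36.8 to 45.8, 58.5 to 71.7 and 34.2 to 97.6 FPKM (7 of 9). Thus all 4 of these lists were higher in NP than in WT dpc16, the skeletal muscle list with overlap. Immediate early genes, which respond to dissociation, had medians of 0.15 for pregnancy and 0.57 for Tbx3 loss, 0 called. The part of these in the members' values was not tested.

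The single-cell libraries show where the members are used. Counts are UMIs, unique molecular identifiers that count captured RNA molecules once, and levels are UMIs of a gene divided by all UMIs of a class in a library and scaled to 1e+06 (CPM), which is not a per-length scale, so genes are not ranked against each other by it. Cells with fewer than 200 genes or over 10% mitochondrial UMIs were left out. There remained 6491 NP, 12853 dpc16, 9031 dpp6 and 8552 dpp40 cells, of 6635, 12984, 9351 and 8716 barcodes; the series' own text states 6485, 12846, 9029 and 8552 cells. Median UMIs were 4448 to 5638 per cell, and pairs of libraries shared 70 to 147 barcodes. Cells were grouped into 31 clusters without using the members, and clusters were named from fixed markers as "-like" classes, so a class may differ from the study's own. No doublet caller was run. RNA of Krt14, a keratinocyte gene, reached 1558 to 4543 CPM in Langerhans and myeloid-like and T cell-like classes, against 6739 to 9917 in interfollicular basal-like cells, so values in the immune classes include RNA of keratinocytes. With 1 library per state there is no test, and the intervals are exact Poisson intervals at 95% that cover counting error only.

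By class, interfollicular basal-like cells led in every library for 5 members, Gpi1, Pfkp, Slc2a1, Hif1a and P4ha1. Slc2a1 stood at 105, 86.7, 152 and 116 CPM in basal-like cells of NP, dpc16, dpp6 and dpp40, at 51.4, 43.2, 69.3 and 53.5 in spinous-like cells, and at 9.76, 15.8, 16.2 and 18.0 in granular-like cells, so it was lower at each step of differentiation in all 4 libraries. Hif1a followed the same order, with 85.1, 128, 111 and 106 CPM in basal-like, 60.0, 73.3, 64.2 and 63.4 in spinous-like and 23.0, 36.3, 22.3 and 33.2 in granular-like cells. Against basal-like cells, 22 of 33 members were lower in all 4 libraries in spinous-like cells and 3 higher, and 25 were lower and 5 higher in granular-like cells. The same counts over all genes were not taken, so these are not read as a trait of the members.

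The mitophagy receptors were highest at the last step instead, after a lower level in spinous-like cells. Bnip3l was highest in granular-like cells in 4 of 4 libraries, at 457, 661, 655 and 470 CPM against 148, 155, 170 and 161 in basal-like cells, ratios of 2.92 to 4.26, while in spinous-like cells it stood at 125, 127, 134 and 131 CPM, below basal-like cells in 4 of 4 libraries. Bnip3 was 1.86 to 2.70 times as high there as in basal-like cells, at 128, 96.9, 207 and 148 CPM, but in the spinous-like cells between them it was lower than in basal-like cells in 4 of 4 libraries, at 28.3, 17.4, 49.6 and 34.6 CPM. Pfkfb3 also led in granular-like cells in every library (5.59 to 11.2 CPM), and Egln3 was 2.40 to 3.01 times its basal-like level there. Granular-like cells had 2.7 or more times the median UMIs of their libraries in both of their clusters, and the part of that in their levels was not tested.

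Elsewhere, Tpi1 and Gapdh led in cycling-like cells in 4 of 4 libraries, Tpi1 at 225, 266, 386 and 380 CPM. Car12 was highest in cells like those of the basal upper follicle in 3 of 4 libraries, at 99.5, 99.6, 136 and 148 CPM, and 2.80 to 3.43 times the interfollicular basal-like level. Ndufa4l2 differed widely between basal compartments: 482, 405, 1324 and 902 CPM in interfollicular basal-like cells, and 29.0, 26.5, 70.5 and 79.0 in basal upper follicle-like cells, ratios of 0.0532 to 0.0875. Hk2 and P4ha2 led in T cell-like cells in every library, Hk2 at 38.1, 48.5, 90.7 and 84.1 CPM against 13.6, 8.85, 10.6 and 18.3 in basal-like cells, while P4ha2 rested on only 3, 13, 7 and 6 UMIs there.

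**Figure D4:**
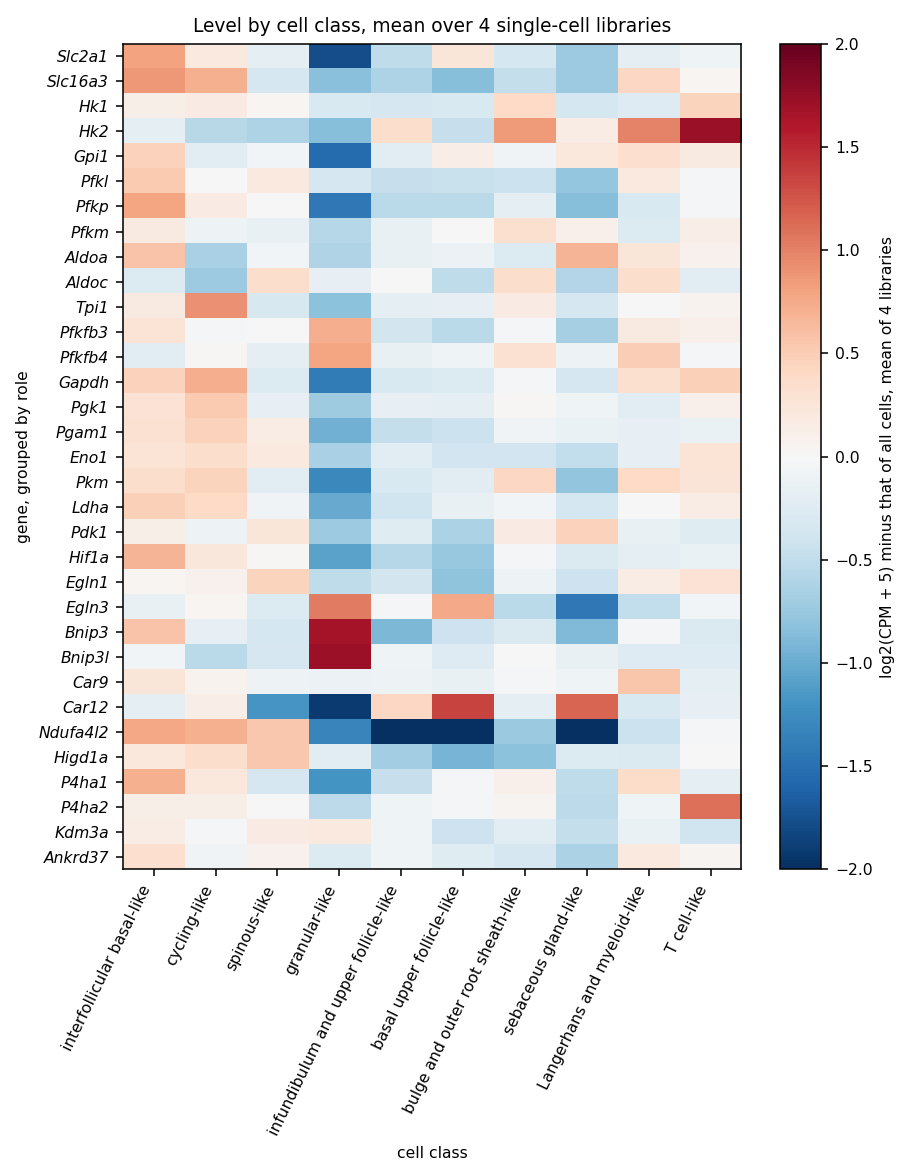
Rows are the 33 members and columns 10 single-cell classes. Colour gives log2(CPM + 5) of the class minus that of all cells, averaged over the 4 libraries, and the scale ends at 2 either way. The granular-like column is blue for Slc2a1, Pfkp and Gpi1 and red for Bnip3 and Bnip3l, and Ndufa4l2 is blue in the follicle and sebaceous gland-like columns.

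Across states, interfollicular basal-like cells were compared first, since that is the compartment of the bulk sort. A gene counted as past the fold with a ratio to NP of 1.5 or more either way and at least 50 UMIs in the 2 sums, which 31 members had. At dpc16, 3 members lay higher and 3 lower (5.13% and 7.73% of all genes with enough UMIs), with a median ratio of 1.03, against 0.998 over all genes. At dpp6, 19 lay higher and 1 lower (5.66% and 4.17% of all genes), with a median of 1.86 against 1.03. At dpp40, 15 lay higher and 1 lower (4.13% and 3.87%), with a median of 1.5 against 0.978. The members together made up 2978 CPM in NP, 3217 at dpc16, 5909 at dpp6 and 4545 at dpp40.

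Most glycolytic enzymes were highest at dpp6 and next at dpp40. Tpi1 stood at 122 (113 to 132), 131 (126 to 136), 310 (299 to 322) and 223 CPM (214 to 231) in NP, dpc16, dpp6 and dpp40. Pkm stood at 159, 180, 313 and 261 CPM, Aldoa at 413, 416, 768 and 567, and Pfkl at 17.7, 19.8, 46.4 and 39.6. Pgam1 (101, 170, 200 and 166 CPM), Gapdh (314, 390, 599 and 451) and Ldha (234, 301, 432 and 371) already lay higher at dpc16 than in NP. Slc16a3 stood at 6.98, 7.09, 24.8 and 18.0 CPM, a ratio to NP of 3.56 at dpp6, whereas Slc2a1 was lowest at dpc16 (86.7, 82.7 to 90.8). Hk1 (22.6, 23.1, 28.2 and 23.1 CPM) and Pdk1 (26.8, 26.3, 34.7 and 26.2) stayed within 1.5 times their NP levels. The 3 members past the fold downwards at dpc16 were Aldoc (5.28, 2.54, 15.4 and 16.5 CPM), Hk2 (13.6, 8.85, 10.6 and 18.3) and Pfkm (9.43, 6.16, 7.62 and 7.52). Aldoc and Hk2 were highest at dpp40, and Pfkm was highest in NP.

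Among hypoxia response members Egln3 had the largest ratio at dpp6. Egln3 stood at 10.8 (8.14 to 13.9), 8.21 (7.02 to 9.55), 51.1 (46.5 to 56.1) and 25.0 CPM (22.2 to 28.0), a ratio to NP of 4.76 at dpp6 and 2.32 at dpp40, where Aldoc (3.12), Slc16a3 (2.58) and Pfkfb3 (2.36) lay above it. Ndufa4l2 stood at 482, 405, 1324 and 902 CPM (ratios of 0.841, 2.75 and 1.87), Higd1a at 205, 240, 540 and 384, and Bnip3 at 51.1, 35.9, 100 and 79.9. Car9 was counted 2, 8, 40 and 27 times, which gives 0.377 (0.0457 to 1.36), 0.391 (0.169 to 0.770), 4.62 (3.30 to 6.29) and 2.31 CPM (1.52 to 3.36), too few UMIs for the fold rule at dpp6. Hif1a was highest at dpc16, with 85.1, 128, 111 and 106 CPM, a ratio of 1.51. P4ha2 was the other hypoxia member past the fold at dpc16 (2.07, 5.18, 5.77 and 4.02 CPM). Its NP value rested on 11 UMIs (interval 1.04 to 3.71 CPM), and in bulk it lay lower at dpc16 than in NP.

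Pgk1 went the other way. It stood at 12.6 (9.79 to 16.0), 11.8 (10.4 to 13.4), 6.00 (4.48 to 7.87) and 6.84 CPM (5.42 to 8.51), the 1 member past the fold downwards at both dpp6 and dpp40, and it lay below NP at dpp6 in 6 of the 6 classes with enough UMIs. Its UMIs in basal-like cells numbered only 52 to 242 per library. The copies named above may take some of its short reads, so its level is uncertain. Whether they bear on this direction was not tested.

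**Figure D5:**
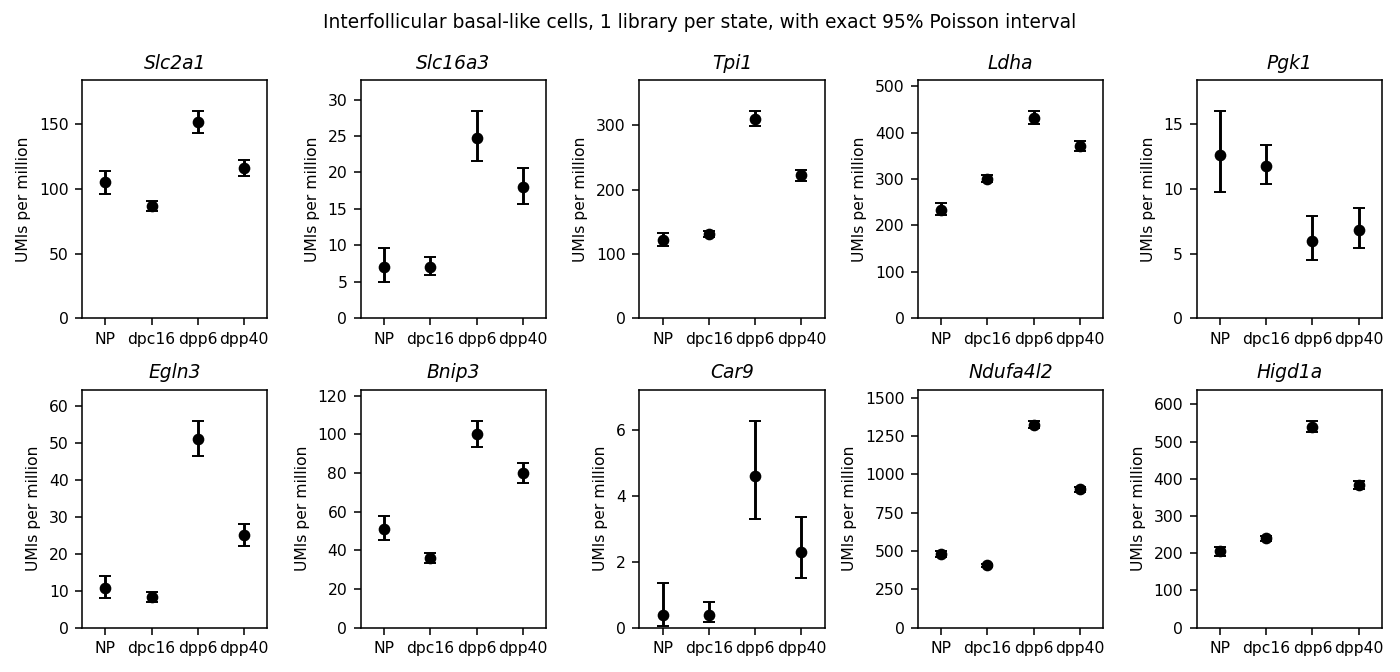
Points are CPM in interfollicular basal-like cells of 1 library per state for 10 members, with exact 95% Poisson intervals that cover counting error only; each y axis starts at 0. Every member shown except Pgk1 is highest at dpp6, and Pgk1 is lower at dpp6 and dpp40 than in NP and dpc16.

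Different clusters made up these basal-like cells. Cluster 1, of whose cells 95.1% came from dpc16, held 76.9% of the dpc16 basal-like cells, while cluster 4 held 50.3% in NP, 40.7% at dpp6 and 36.7% at dpp40. Cluster 3 was led by stress genes (Fosl1, Serpinb2 and Krt16), and no basal marker was among the 10 leading genes of clusters 4 and 13, where Ndufa4l2 was. Within cluster 4 Ndufa4l2 stood at 513, 381, 1732 and 1131 CPM and Tpi1 at 132, 131, 394 and 253. Within cluster 3, which all 4 libraries share, Ndufa4l2 stood at 365, 280, 852 and 585 CPM, Egln3 at 16.0, 13.3, 49.4 and 30.1, and Bnip3 at 59.5, 40.9, 83.3 and 77.6. In each of the 4 basal-like clusters (1, 3, 4 and 13) Ndufa4l2, Tpi1, Egln3 and Bnip3 were all higher at dpp6 than in NP, although cluster 1 held only 46 NP cells.

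The postpartum libraries were higher in most other classes too. At dpp6 the members' median ratio to NP was 1.60 in spinous-like, 1.57 in cycling-like, 1.39 in infundibulum and upper follicle-like, 1.35 in basal upper follicle-like, 1.28 in granular-like, 1.19 in bulge and outer root sheath-like and 1.12 in sebaceous gland-like cells, and 1.71 in both Langerhans and myeloid-like and T cell-like cells. Over all genes the medians of those classes were 0.928 to 1.04. Ndufa4l2, Tpi1, Aldoa, Gapdh, Pgam1, Ldha, Slc2a1 and Bnip3l lay above NP at dpp6 in 10 of 10 classes. The share of all genes that did so was not taken. In spinous-like cells at dpc16, 3 of 31 members lay higher and 3 lower by the fold rule (3.11% and 10.7% of all genes), Ndufa4l2 among the lower ones at 469 and 252 CPM in NP and dpc16. Different clusters made up this class as well: cluster 5 held 1706 of the 2498 spinous-like cells of dpc16 and 29 of the 1200 of NP, and cluster 7, with Ndufa4l2 among its 10 leading genes, held 124 and 625. In basal upper follicle-like cells 1 of 27 lay higher and 2 lower (4.98% and 5.49%). Each state is 1 library, so a difference of state and one of library cannot be told apart. Beside it, immediate early genes summed to 9541, 10446, 14050 and 14299 CPM in basal-like cells, median UMIs were 4237, 3919, 4897 and 5249, and median mitochondrial shares 2.78%, 3.04%, 2.99% and 2.61%. S phase genes summed to 206, 289, 304 and 373 CPM there, higher at dpc16 than in NP, whereas in bulk they lay lower. Genes of G2 and mitosis summed to 99.4, 103, 96.6 and 110 CPM in this class, which leaves out cycling-like cells. Over all cells they summed to 526, 366, 459 and 525 CPM, lower at dpc16 than in NP, as in bulk. S phase genes over all cells summed to 246, 295, 342 and 329 CPM, higher at dpc16. The part of each of these was not tested.

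Bulk and single-cell values of dpc16 and NP can be set side by side, as different mice, genotypes and scales. Taken as a set they differed. In bulk 27 of 33 members lay lower at dpc16, with a median log2 difference of -0.47. In basal-like cells 20 of 31 members lay above NP and 11 below, with a median ratio of 1.03. Ndufa4l2 and Bnip3 were lower at dpc16 in both, with basal-like ratios of 0.841 and 0.702 and bulk ratios of means of 0.430 and 0.475. Hif1a was higher at dpc16 in both, with ratios of 1.51 and 1.61. Tpi1 and Pkm, which in bulk lay at 0.539 and 0.589 of the NP mean, had basal-like ratios of 1.07 and 1.13, and Slc2a1, higher at dpc16 in bulk (1.30), had a basal-like ratio of 0.828. Cycling-like cells formed a class of their own and are not in the basal-like values, while the labels name no step that removed them from the bulk sort. In cycling-like cells of NP and dpc16, Tpi1 stood at 1.84 and 2.03 times its basal-like level, and Pkm at 1.09 and 1.13 times. The part of this was not tested. Genotype, sorting, the place of cycling cells and counting all differ between these data sets and cannot be told apart. Whether tamoxifen differs too is unknown.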

How the data were processed

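The authors deposited bulk FPKM in 1 table. Per the submitters' processing notes cutadapt 1.14, TopHat2, Cufflinks 2.2.1, Cuffdiff and mm10 were used, with no roles given; the sources used here do not give strand setting, annotation or depth. The authors deposited single-cell UMI counts per gene and barcode, made with Cell Ranger 2.2.0 per the submitters' processing notes. Bulk values were taken as log2(FPKM + 1), which understates changes of low genes, and the 11497 genes averaging 1 FPKM or more were fitted with limma 3.58.1 (R 4.3.3; 3 group means, trend, two-sided, Benjamini-Hochberg), a step tested on simulated data. Cells were clustered on 2000 variable genes without members, mitochondrial genes or EGFP, with 30 components, 15 neighbours and Leiden resolution 1 (leidenalg 0.10.2, Python 3.11.15, seed 1), without library integration; the rule that scores clusters against the fixed markers was set after the clusters were seen. Sums of UMIs per class and library were compared as ratios. Genes given in full were the members called in any comparison and the 8 with the smallest p in each of the first 2; of each other pathway list, genes past the threshold or else that with the smallest p. Members, lists and rules were chosen with earlier results of these data known. Alternatives changed the pseudocount, filters, scaling, libraries, replicate block, mitochondrial limit and clustering. Positions and promoters are GRCm38. A result of the pathway lists is not reported here.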

Additional observations from a re-analysis of the deposited data

How the results depend on the processing

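Depth behind the FPKM is unknown, and 3 libraries a group limit every bulk call. Leaving out 1 library at a time moved the members called lower with pregnancy between 0 and 1, with Tbx3 loss between 0 and 2 higher and 0 and 1 lower, and in cKO against NP between 0 and 1 higher and 0 and 15 lower; the medians ranged from -0.60 to -0.34, -0.41 to -0.03 and -0.88 to -0.36. With only the 6 libraries compared, 1 member was called lower with pregnancy, 2 higher with Tbx3 loss, and 0 lower in cKO against NP. With no filter on low FPKM, 0 members were called lower with Tbx3 loss and 1 in cKO against NP. In basal upper follicle-like cells at dpc16, 1 member lay lower by the fold rule with at most 5% mitochondrial UMIs. With the replicate block 0, 2 and 6 members were called in the 3 comparisons, against 0, 2 and 8 without it. Deviations of same-numbered WT dpc16 and cKO libraries had correlations of 0.31, 0.07 and 0.36, against -0.34 to 0.09 for different numbers. Those of WT dpc16 and NP had -0.07, -0.07 and -0.21, against -0.08 to 0.14. The main fit did not pair the libraries, and whether WT dpc16 and cKO libraries of the same number belong together is not known. Signs that changed under an alternative belonged only to members called in neither setting. The other counts kept within 1.5 times under the remaining alternatives.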
